A study of Mus musculus with 6 samples.

Results

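Mast cells are granulated immune cells that settle in connective tissue, including fat. The genes described here are 9 genes that mark them, chosen by gene name in the per-library count files, out of 34745 genes listed there. They are Cpa3, Mcpt4, Cma1 and Tpsb2, which encode proteases of the granules, Kit, Fcer1a and Ms4a2, which encode receptor chains of the cell surface, Hdc, which encodes the enzyme that makes histamine, and Gata2, which encodes a transcription factor of the lineage. All 9 names were found once each. RNA-seq was carried out on inguinal white adipose tissue of the groin (IngWAT), from 3 mice with a knock-in of Slc35d3 specific to adipose tissue (SAKI) and 3 wild-type (WT) mice. The SAKI mice carried a Slc35d3 transgene behind a loxP-flanked stop sequence and a Cre recombinase driven by the adiponectin promoter, which is active in adipocytes. The WT mice were controls without Cre, described in the study's methods as carrying the same Slc35d3 transgene locus. All 6 were male. They were put on normal chow (10 kcal% fat) at the age of 6 weeks and stayed on it for 10 weeks, which makes them 16 weeks old at the end, and the tissue treatment is labelled as PBS perfusion in every sample. The question put to these data here was whether mast cell transcripts differed in the fat of the knock-in mice.

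Mast cells mature in the tissue under the control of stem cell factor, the ligand of the receptor tyrosine kinase Kit, and they bind IgE through a high-affinity receptor whose alpha and beta chains are encoded by Fcer1a and Ms4a2. Crosslinking of the bound IgE releases granules that hold histamine, made by histidine decarboxylase (Hdc), and proteases stored on serglycin proteoglycans. Those of connective tissue mast cells include carboxypeptidase A3 (Cpa3), the chymases Mcpt4 and Cma1 and the tryptase Tpsb2. Kit, Hdc and Gata2 are also used by other cells, and Fcer1a and Ms4a2 are shared with basophils.

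The libraries held 15354161 to 18787036 counts. Slc35d3 itself was at 76.6 ± 4.79 CPM (counts scaled to library size, here after TMM normalization) in WT mice and 770 ± 23.9 CPM in SAKI mice (SD, n = 3 each), so that each library matched its label. The WT mice differed among themselves. In a principal component analysis, component 1 held 47.9% of the variance, and on it WT 2 stood at 24.4, beside the SAKI libraries at 21.0 to 27.8 and apart from WT 1 at -40.6 and WT 3 at -58.1. Counts of mitochondrial genes made up 13.8% of WT 2 and 13.1% to 15.9% of the SAKI libraries, against 7.31% of WT 1 and 8.79% of WT 3. The calls for mast cell genes are therefore given with WT 2 and, further on, without it. In whole tissue, fewer cells of a type and less RNA per cell cannot be told apart.

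The stretches before the start sites of Cpa3, Mcpt4, Cma1 and Ms4a2 are shown because the first 3 are granule protease genes whose levels ran in parallel across the libraries, and because Ms4a2, like Cpa3, did not overlap between groups. They are from RefSeq (GRCm38.p6), run 5′ to 3′ on the gene's strand, and end at the base before the start that RefSeq gives, except that the last 3 bases are left off in Mcpt4, where another annotated transcript starts further out. They cover chr3:20242182-20242431 for Cpa3, chr14:56062314-56062560 for Mcpt4, chr14:55944676-55944925 for Cma1 and chr19:11623720-11623969 for Ms4a2, all on the minus strand. Capitals mark the letters AGATAA or TGATAA, which GATA factors can bind, on either strand.
Cpa3: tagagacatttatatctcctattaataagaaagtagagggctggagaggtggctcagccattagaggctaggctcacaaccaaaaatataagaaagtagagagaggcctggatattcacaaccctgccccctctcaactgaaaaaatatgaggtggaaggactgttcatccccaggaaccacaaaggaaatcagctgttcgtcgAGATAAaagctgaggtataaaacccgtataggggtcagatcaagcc
Mcpt4: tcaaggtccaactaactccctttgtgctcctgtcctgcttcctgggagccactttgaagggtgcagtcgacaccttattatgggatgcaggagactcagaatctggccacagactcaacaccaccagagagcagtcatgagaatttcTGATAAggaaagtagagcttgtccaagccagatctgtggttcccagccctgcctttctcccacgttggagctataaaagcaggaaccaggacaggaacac
Cma1: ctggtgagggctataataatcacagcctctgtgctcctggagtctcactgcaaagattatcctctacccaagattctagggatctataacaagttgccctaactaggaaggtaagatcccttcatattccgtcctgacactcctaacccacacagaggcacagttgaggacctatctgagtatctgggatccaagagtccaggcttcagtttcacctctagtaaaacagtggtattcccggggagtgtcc
Ms4a2: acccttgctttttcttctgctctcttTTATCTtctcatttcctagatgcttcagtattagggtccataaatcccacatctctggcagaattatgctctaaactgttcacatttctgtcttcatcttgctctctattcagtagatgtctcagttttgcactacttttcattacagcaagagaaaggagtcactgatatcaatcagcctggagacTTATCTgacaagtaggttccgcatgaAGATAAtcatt
The table of promoters held 8 of the 9 members, Tpsb2 being the other. AGATAA or TGATAA, read on both strands, was searched in the full 250 bases before each RefSeq start, of which Kit and Gata2 have more than 1. It was present in 4 of these 8 genes, namely Cpa3, Mcpt4, Ms4a2 and Fcer1a, and in 16.6% of 32851 promoters of the same length. In Cpa3 it began 46 bases before the start and in Mcpt4 103 bases before the RefSeq start, while Ms4a2 held it 3 times and Cma1 not once. The letters CACATG, an E-box that MITF can bind, were searched on both strands in the same way and were present in Fcer1a alone of the 8, and in 12.2% of all promoters. These are matches of letters and not measured binding sites.

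The granule protease genes were the most abundant of the 9 by the deposited values per length, and lay higher in SAKI mice on average. A single WT library, WT 2, was at the SAKI level. By CPM, which takes no account of length, Kit had the highest mean of the 9 in WT mice, at 33.1 CPM, and Mcpt4 in SAKI mice, at 32.6 CPM. Per kilobase of gene length, the mean over the 6 libraries was 27.3 FPKM (fragments scaled to gene length and library size) for Mcpt4, 15.5 for Tpsb2, 14.3 for Cma1 and 12.4 for Cpa3. Kit followed at 2.37 FPKM, Gata2 at 1.87, Hdc at 0.999, Fcer1a at 0.695 and Ms4a2 at 0.104. Mcpt4 was above Tpsb2 in 6 of 6 libraries, Cpa3 above Kit in 6 of 6 and Fcer1a above Ms4a2 in 6 of 6. The other neighbours in this order, from Tpsb2 to Cma1 to Cpa3 and from Kit to Gata2 to Hdc to Fcer1a, changed places in 1 of 6 libraries each, so that their order was not fixed.

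Cpa3 encodes carboxypeptidase A3, which trims peptides in the granule. It lies on chromosome 3 of GRCm38 from 20215620 to 20242181 on the minus strand. It was at 10.7, 20.6 and 6.22 CPM in WT 1, 2 and 3 and at 23.1, 23.9 and 28.4 CPM in SAKI 1, 2 and 3. Every SAKI library lay above every WT library, and WT 2 came closest. The means were 12.5 ± 7.33 CPM in WT and 25.2 ± 2.83 CPM in SAKI mice (SD, n = 3 each), which gives a log2 fold change, SAKI over WT, of 1.01 (standard error 0.39, 95% interval 0.09 to 1.93). The unadjusted p from edgeR's quasi-likelihood test was 0.0363, and the adjusted p = 0.251 did not pass the threshold of 0.05.

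Mcpt4, the chymase mMCP-4, lies on chromosome 14 from 56059744 to 56062310 on the minus strand. Its values were 20.7, 30.7 and 12.6 CPM in WT 1, 2 and 3 and 27.8, 34.0 and 36.0 CPM in SAKI 1, 2 and 3. The groups overlapped, since WT 2 exceeded SAKI 1. The log2 fold change came to 0.61 (standard error 0.30, 95% interval -0.10 to 1.32, edgeR adjusted p = 0.324).

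Cma1 encodes a chymase of the same cluster, 115082 bases from Mcpt4 on chromosome 14 at 55941453 to 55944661, also on the minus strand, with 8 annotated genes between them. It was counted at 9.45, 19.1 and 4.85 CPM in WT 1, 2 and 3 and at 14.5, 20.7 and 23.2 CPM in SAKI 1, 2 and 3. WT 2 again lay inside the SAKI range. The log2 fold change came to 0.81 (standard error 0.46, 95% interval -0.27 to 1.89, edgeR adjusted p = 0.379).

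Tpsb2, the tryptase mMCP-6, on the plus strand of chromosome 17 from 25366550 to 25368094, stood at 11.0, 19.7 and 7.40 CPM in WT 1, 2 and 3. In SAKI 1, 2 and 3 it stood at 16.0, 20.2 and 25.7 CPM. The groups overlapped through WT 2. The log2 fold change came to 0.70 (standard error 0.36, 95% interval -0.15 to 1.55, edgeR adjusted p = 0.337).

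**Figure D1:**
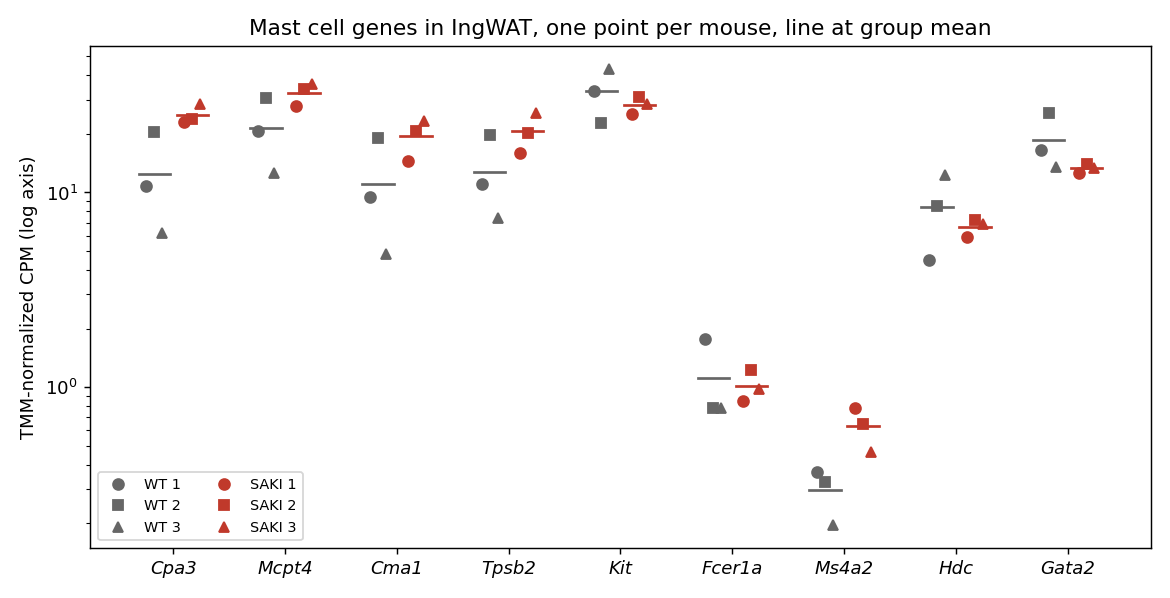
Levels of the 9 mast cell genes in IngWAT as TMM-normalized CPM on a log axis, each mouse as a point, WT in grey and SAKI in red, with the marker shape for the mouse number and short lines for group means. Cpa3 lies at 6.22 to 20.6 CPM in WT and 23.1 to 28.4 CPM in SAKI mice, and the square of WT 2 sits at or near the SAKI points for all 4 protease genes.

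The summed protease expression varied 3.64-fold between libraries, and the share of each gene in it varied less. Summed over Cpa3, Mcpt4, Cma1 and Tpsb2, expression was 51.9, 89.9 and 31.1 CPM in WT 1, 2 and 3 and 81.5, 98.8 and 113 CPM in SAKI 1, 2 and 3. The sum in WT 2 was 2.17 times the mean of WT 1 and WT 3. Behind these sums were 475 to 2191 counts per library. Mcpt4 made up 31.8% to 40.6% of the sum, Tpsb2 19.7% to 23.8% and Cma1 15.6% to 21.2%. The share of Cpa3 was 20.7%, 22.9% and 20% in WT 1, 2 and 3 and 28.4%, 24.2% and 25.1% in SAKI 1, 2 and 3, so that every SAKI library lay above every WT library. The 95% Wilson interval of this share, which covers counting error only, was 20.7% to 25.1% in WT 2 and 22.1% to 26.4% in SAKI 2, which overlap. In WT 1 and SAKI 1 it was 18.1% to 23.5% and 26.0% to 31.0%, which do not. The interval for the share of Mcpt4 was 36.6% to 43.2% in WT 1 and 29.9% to 33.8% in SAKI 3, which do not overlap. In WT 2, however, its share was 34.1%, beside 34.1% in SAKI 1 and 34.4% in SAKI 2. The share of Cpa3 and the pair of libraries for Mcpt4 were picked out after their values were seen.

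**Figure D2:**
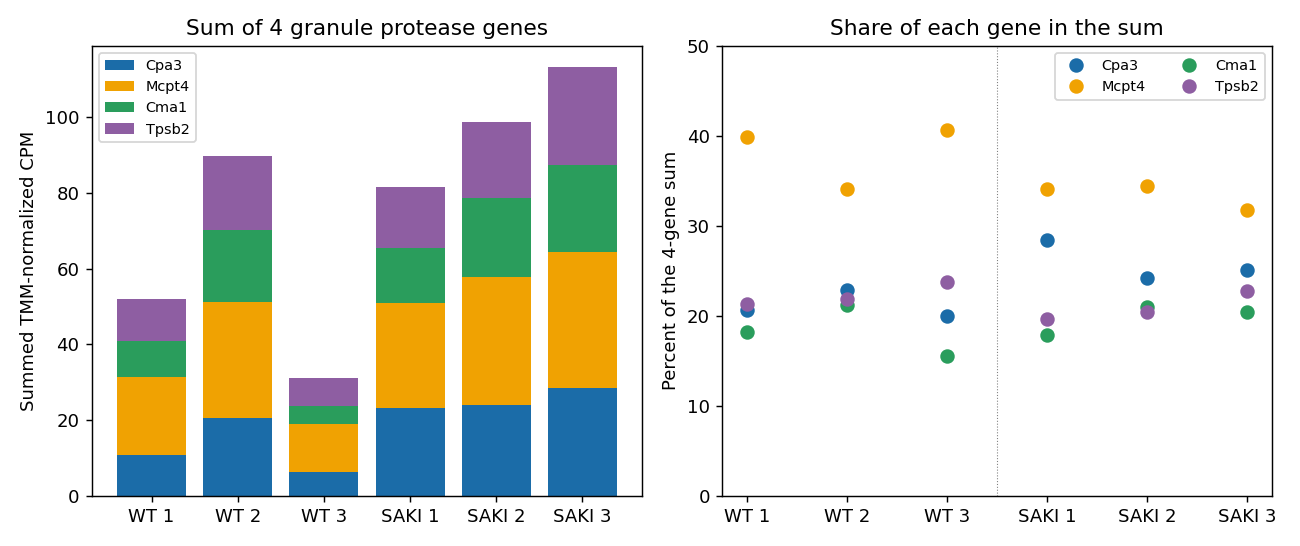
Left, TMM-normalized CPM of Cpa3, Mcpt4, Cma1 and Tpsb2 stacked for each library, from 31.1 CPM in WT 3 to 113 CPM in SAKI 3. Right, the percent of that sum contributed by each gene in each library, where Mcpt4 is the highest in all 6 and Cpa3 is at 20% to 22.9% in WT and 24.2% to 28.4% in SAKI libraries.

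The receptor genes did not follow the proteases as a group. Kit, the receptor of stem cell factor, lies on chromosome 5 from 75574916 to 75656722 on the plus strand. It was at 33.3, 22.8 and 43.2 CPM in WT 1, 2 and 3 and at 25.4, 30.9 and 28.5 CPM in SAKI 1, 2 and 3. It was highest in WT 3, where the proteases were lowest, and lowest in WT 2, and the groups overlapped. The log2 fold change came to -0.23 (standard error 0.23, 95% interval -0.77 to 0.31, edgeR adjusted p = 0.612). Kit is also expressed by melanocytes and some epithelia. The 5 melanocyte markers Dct, Tyr, Tyrp1, Pmel and Mlana summed to 0.775 to 2.08 CPM per library. For 6 markers of mammary and skin epithelium the sums were 2.82, 0.194 and 10.9 CPM in WT 1, 2 and 3. In SAKI 1, 2 and 3 they were 1.37, 4.33 and 2.07 CPM. The part of these cells in the level of Kit was not tested.

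Fcer1a, the alpha chain that binds IgE, on chromosome 1 from 173221284 to 173227214, had 29, 12 and 12 counts in WT 1, 2 and 3 and 13, 19 and 19 in SAKI 1, 2 and 3. This is 0.778 to 1.78 CPM in WT and 0.847 to 1.23 CPM in SAKI mice, with the highest value in WT 1. Its log2 fold change came to -0.13 (standard error 0.42, 95% interval -1.13 to 0.86, edgeR adjusted p = 0.881). Ms4a2, the beta chain that amplifies the signal of the receptor, on chromosome 19 from 11615523 to 11623719, had 6, 5 and 3 counts in WT 1, 2 and 3 and 12, 10 and 9 in SAKI 1, 2 and 3. The groups did not overlap, at 0.296 ± 0.0892 CPM in WT and 0.631 ± 0.159 CPM in SAKI mice (SD, n = 3 each). With 45 counts in all, Ms4a2 was below the filter on low counts, and a two-sided exact permutation test over the 6 libraries gave p = 0.1, the smallest that 3 mice against 3 allow.

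Hdc, the enzyme that makes histamine from histidine, on chromosome 2 from 126593667 to 126619299, was at 4.48, 8.49 and 12.4 CPM in WT 1, 2 and 3 and at 5.93, 7.24 and 6.88 CPM in SAKI 1, 2 and 3. The SAKI libraries all lay within the WT range. The log2 fold change came to -0.34 (standard error 0.35, 95% interval -1.17 to 0.49, edgeR adjusted p = 0.627). Gata2, a zinc finger transcription factor needed for mast cell development and also present in endothelium and fat cell precursors, on chromosome 6 from 88193891 to 88207032, was at 16.6, 25.7 and 13.5 CPM in WT 1, 2 and 3. In SAKI 1, 2 and 3 it was at 12.5, 14 and 13.3 CPM, near WT 3 and under WT 1 and WT 2. Its log2 fold change came to -0.48 (standard error 0.24, 95% interval -1.06 to 0.09, edgeR adjusted p = 0.331).

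Across the 9 genes, 8 passed the filter and 0 passed an adjusted p of 0.05 with edgeR, where 0.0325% of the 15400 genes tested did (0.0195% higher and 0.013% lower in SAKI mice). At an unadjusted p under 0.05 from edgeR there was 1, Cpa3, where 18.4% of all genes tested stood there (8.36% higher and 9.99% lower), and DESeq2 called 0 members while it called 4.61% of all genes it tested (1.94% higher and 2.66% lower). Cpa3 alone of the 8 had groups that did not overlap, against 25.4% of all genes tested (13% higher and 12.4% lower), and Ms4a2, which was not tested, was the other member without overlap. Neither share of the 8 is above its background over both directions. Among higher genes alone, 1 of 8 is above the 8.36% at an unadjusted p under 0.05 from edgeR. It is under the 13% without overlap, and both rest on Cpa3. Of the 8, 4 had a log2 fold change above 0 (the proteases) and 4 below 0, with a median of 0.24 beside -0.0035 over all genes tested. Among WT mice the highest value was 3.31-fold the lowest for Cpa3 and 3.93-fold for Cma1, against 1.23-fold and 1.59-fold among SAKI mice.

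Without WT 2, the 4 protease genes passed the test, and no other member did. Their log2 fold changes were then 1.57 for Cpa3, 0.97 for Mcpt4, 1.45 for Cma1 and 1.17 for Tpsb2 (edgeR adjusted p = 0.0138, 0.0379, 0.0348 and 0.0335). In that comparison 2598 genes in all, 16.6% of 15693 tested, were called, 7.41% of those tested as higher and 9.14% as lower in SAKI mice. Over all alternatives that were run, the edgeR, DESeq2 or limma adjusted p ranged from 0.0138 to 0.514 for Cpa3, 0.0379 to 0.598 for Mcpt4, 0.0348 to 0.640 for Cma1 and 0.0335 to 0.631 for Tpsb2. Kit stood at -0.43 (edgeR adjusted p = 0.0985), Gata2 at -0.17 (edgeR adjusted p = 0.436), Hdc at -0.33 and Fcer1a at -0.33. Ms4a2 passed the filter there, with a log2 fold change of 1.12 (edgeR adjusted p = 0.17). Without WT 3, the lowest library for all 4 proteases, the log2 fold changes were smaller, at 0.69 for Cpa3, 0.34 for Mcpt4, 0.45 for Cma1 and 0.43 for Tpsb2, and 0 members were called by edgeR. Nothing in the labels sets WT 2 apart, so its omission is a measure of how far the comparison rests on 1 mouse.

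**Figure D3:**
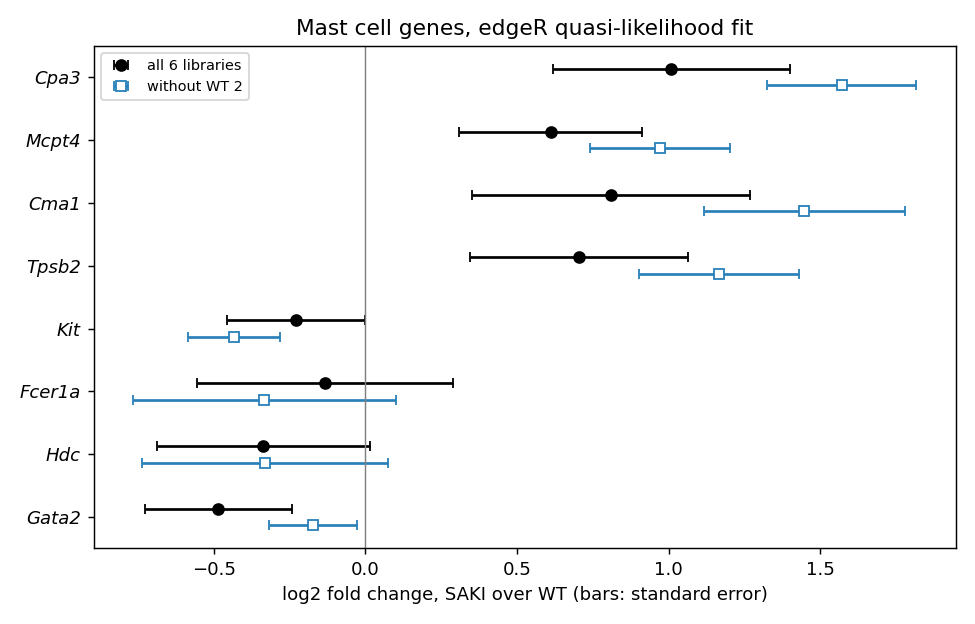
log2 fold change of SAKI over WT with its standard error for the 8 members tested, from all 6 libraries (black) and without WT 2 (blue, open squares). Cpa3 moves from 1.01 to 1.57 and Cma1 from 0.81 to 1.45, while Kit, Fcer1a, Hdc and Gata2 stay below 0 in both.

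With all 6 libraries, none of the other genes listed for mast cells passed the test. Of 16 further granule and surface genes, 11 were tested, 6 lay above 0 and 5 below, and 0 were called by edgeR. The unadjusted p from edgeR fell below 0.05 for 0 higher and 2 lower genes. Of all genes tested, 8.36% passed that level as higher and 9.99% as lower. Mcpt1 and Mcpt2, chymases of mucosal mast cells, had 3 counts each over the 6 libraries, and Mcpt9 had none. Tpsab1, the tryptase mMCP-7, was at 0.720 to 3.24 CPM with its highest value in WT 2, and per length it reached 1.02 FPKM at most, under the mean of 15.5 FPKM of Tpsb2. Mrgprb1 and Mrgprb2, which encode receptors largely restricted to connective tissue mast cells, were ordered much as the proteases were. Mrgprb1 was at 3.68, 5.12 and 2.36 CPM in WT 1, 2 and 3 and at 4.11, 5.56 and 5.94 CPM in SAKI 1, 2 and 3 (log2 fold change 0.48, edgeR adjusted p = 0.447). Mrgprb2 was at 1.17, 1.95 and 0.131 CPM in WT 1, 2 and 3 and at 1.5, 1.88 and 1.86 CPM in SAKI 1, 2 and 3. WT 3 was the lowest and WT 2 among the high libraries for both. Other genes of the list were ordered otherwise. Rab27b was lowest in SAKI 2, at 0.711 CPM, and Slc18a2 was at 1.84 CPM in WT 1 and 0.973 CPM in WT 2. Mrgprb2, Rab27b, Slc18a2, Tpsab1 and the Mcpt genes were named after their values were seen. Cd63, a granule membrane protein present in many cells, stood at a log2 fold change of -0.51 (edgeR adjusted p = 0.173) with no overlap between groups. Il1rl1, the receptor of IL-33, was at 45.8, 15.3 and 29.3 CPM in WT 1, 2 and 3 and at 13 to 17.8 CPM in SAKI mice (log2 fold change -0.92, edgeR adjusted p = 0.26). Srgn, the serglycin core on which proteases are stored, was at 79.8 to 113 CPM in WT and 108 to 120 CPM in SAKI mice.

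Genes for the lipid mediators of mast cells, 6 in number, gave 0 calls with edgeR, with 5 above 0 and 1 below. At an unadjusted p under 0.05 with edgeR 1 was higher and 1 lower, where 8.36% of all genes tested were higher and 9.99% lower. Hpgds, which makes prostaglandin D2, was at 5.95, 7.98 and 3.67 CPM in WT 1, 2 and 3 and at 9.45, 10.4 and 13 CPM in SAKI 1, 2 and 3. The groups did not overlap, and the log2 fold change came to 0.90 (standard error 0.30, edgeR adjusted p = 0.21). Ltc4s, which makes leukotriene C4, lay the other way at -0.57 (edgeR adjusted p = 0.256). Macrophages express both genes as well.

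Signaling genes downstream of the IgE receptor lay higher on average, again without a call. Of 15 genes, 13 were above 0 and 2 below with a median of 0.27. For 6 higher genes and 1 lower gene, edgeR's unadjusted p fell below 0.05. Among all genes tested, 8.36% reached that level as higher and 9.99% as lower. Lcp2, an adaptor of antigen receptors, had a log2 fold change of 0.78, Syk, the kinase recruited to the receptor, one of 0.55, and the adaptors Grap2 and Lat stood at 0.90 and 0.75 (edgeR adjusted p = 0.148, 0.148, 0.166 and 0.188). These 4 were named for their small p and did not overlap between groups, and over the whole list 7 of 15 lay higher without overlap, where 13% of all genes tested did. T and B cells each use some of these genes. The 6 T cell markers were likewise all above 0, at a sum of 357 ± 27.5 CPM in SAKI and 223 ± 50.8 CPM in WT mice (SD, n = 3 each) with no overlap. All 8 macrophage markers were above 0 as well. The part of lymphocytes or macrophages in the values of the signaling genes was not tested.

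For the growth factors, Kitl, which encodes stem cell factor, was at 110 to 140 CPM in WT and 104 to 120 CPM in SAKI mice (log2 fold change -0.15, standard error 0.12, edgeR adjusted p = 0.533). Il33 was at 38.8, 10.1 and 31.8 CPM in WT 1, 2 and 3 and at 11.6 to 19.8 CPM in SAKI mice (edgeR adjusted p = 0.371). Il3 and Il9 had no count in any library. All 4 factors tested of 7 lay below 0, with 0 calls and 0 at an unadjusted p under 0.05 with edgeR. In the list of 12 genes of Kit signaling, 4 were above 0 and 8 below, with 0 calls. Cbl, which tags the activated receptor for degradation, stood at 0.49 (edgeR adjusted p = 0.163) and Ptpn11, the phosphatase SHP-2, at -0.39 (edgeR adjusted p = 0.243). Of 8 transcription factors of the lineage, 4 were above 0 and 4 below, with 0 calls and 0 at an unadjusted p under 0.05 with edgeR.

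Without WT 2, an alternative added after the data were seen, genes of these lists passed the edgeR test in both directions, where 7.41% of all genes tested were higher and 9.14% lower. The granule and surface list then had 0 higher and 2 lower of 11 tested, Cd63 at -0.62 and Il1rl1 at -1.23 (edgeR adjusted p = 0.0105 and 0.0192). The lipid mediator list had 3 higher and 1 lower of 6, with Hpgds at 1.19 and Ltc4s at -0.74 (edgeR adjusted p = 0.0326 and 0.0472). The IgE receptor signaling list had 4 higher and 1 lower of 15. Il33 stood at -1.22 (edgeR adjusted p = 0.0211), the 1 gene called of 4 growth factors. In Kit signaling 1 of 12 was higher, Cbl, and of the 8 transcription factors 1 was lower, Mitf, at -0.61 (edgeR adjusted p = 0.0156), a gene named after its values were seen.

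Of 5 markers of basophils, cells that share the IgE receptor and histamine, the granule protease genes Mcpt8 and Prss34 were at or near 0. Mcpt8 had no count in any of the 6 libraries, where a count of 0 allows up to 0.155 to 0.196 CPM, and Prss34 had 0 to 5 counts. The markers Cd200r3, at 0.195 to 1.04 CPM, and Il3ra, a receptor chain that other blood cells also carry, at 8.45 to 13.9 CPM, were tested and gave log2 fold changes of 0.23 and 0.10 (edgeR adjusted p = 0.857 and 0.832), and Il13 had 3 counts in all. The 5 genes summed to 8.77 to 14.8 CPM, and the part of basophils in the levels of Fcer1a, Ms4a2 and Hdc was not tested. Eosinophil markers, 6 genes, summed to 12.3, 41.9 and 7.14 CPM in WT 1, 2 and 3 and to 30.1, 27.2 and 25.8 CPM in SAKI 1, 2 and 3. As for the protease genes, WT 3 and WT 1 were the lowest, but here WT 2 was the highest and the SAKI libraries stood in another order. The 7 neutrophil markers summed to 8.04 to 24.9 CPM in WT and 39.1 to 43.2 CPM in SAKI mice, without overlap. Of 6 tested, 4 were higher at an unadjusted p under 0.05 with edgeR, where 8.36% of all genes tested were, and 0 were called. The 6 markers of group 2 innate lymphoid cells summed to 79.8 to 94.6 CPM.

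Marker sums of macrophages and fibroblasts, like the protease genes, were low in WT 1 and WT 3 and high in the other libraries. The 8 macrophage markers summed to 1143, 2172 and 931 CPM in WT 1, 2 and 3 and to 2239, 2391 and 2686 CPM in SAKI 1, 2 and 3, and all 8 had a log2 fold change above 0, with 0 called by edgeR. The 7 fibroblast and progenitor markers summed to 4204, 9117 and 3021 CPM in WT 1, 2 and 3 and to 8626, 8410 and 9504 CPM in SAKI 1, 2 and 3. Sums in WT 2 were 2.09 and 2.52 times the mean of WT 1 and WT 3 for these lists, near the 2.17 times of the proteases. Col3a1, Col1a1 and Dcn made up most of the fibroblast and progenitor sum. Of its 7 genes, 5 had a log2 fold change above 0 and 2 below, namely Pdgfra at -0.21 and Ly6a at -0.13, with 0 called by edgeR. Pdgfra and Ly6a were named after their values were seen. Without WT 2, 8 of 8 macrophage and 5 of 7 fibroblast and progenitor markers were called as higher in SAKI mice by edgeR. The 4 proteases were called with them. Other lists had such calls as well, with 4 of 6 T cell, 3 of 5 eosinophil and 3 of 6 neutrophil markers higher. Of B cell and mature adipocyte markers 0 of 7 each were called. Over all genes tested in that fit, 7.41% were higher and 9.14% lower. The mature adipocyte markers, in contrast, summed to 13980, 17340 and 17560 CPM in WT 1, 2 and 3 and to 12170 to 13490 CPM in SAKI mice. B cell markers, which can come from a lymph node within the depot, were lowest in WT 2 at 390 CPM, against 610 to 744 CPM in the other libraries. For the 7 endothelial markers the sums were 1209 to 1250 CPM in WT and 1100 to 1170 CPM in SAKI mice, and 4 mesothelial markers summed to 0.652 to 7.33 CPM. The part of these cells in the level of the protease genes was not tested.

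**Figure D4:**
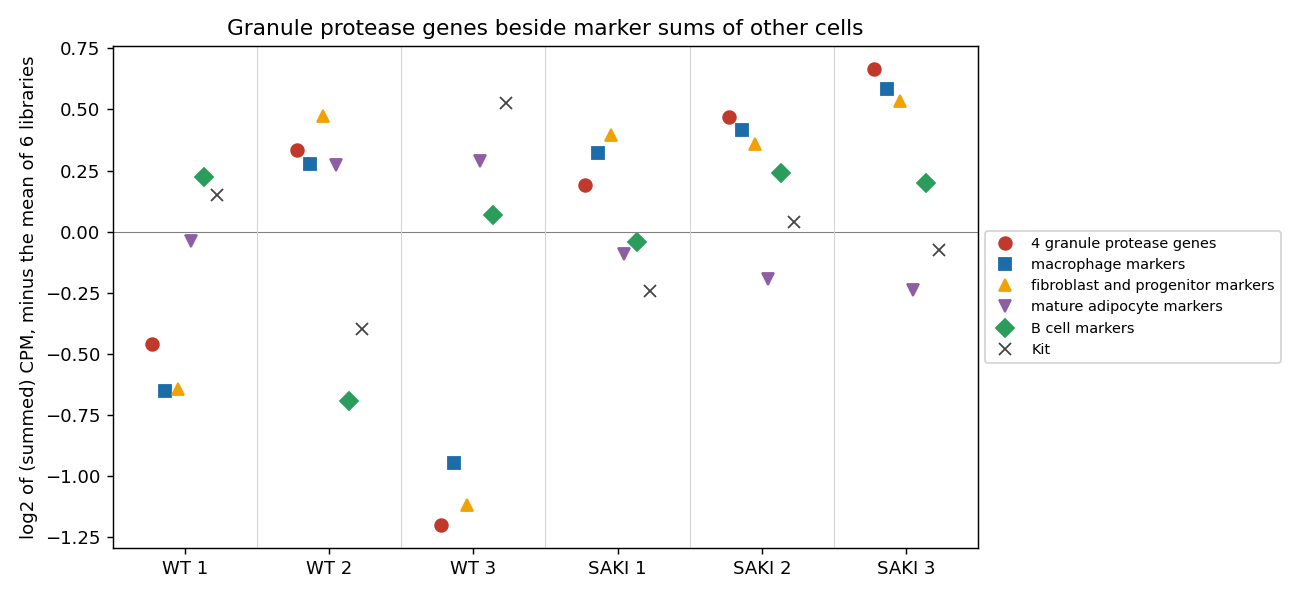
log2 of summed TMM-normalized CPM in each library, less the mean of the 6 libraries, for the 4 granule protease genes and the marker lists of macrophages, fibroblasts and progenitors, mature adipocytes and B cells, with Kit alone. The sums of the proteases, of macrophage markers and of fibroblast and progenitor markers are low in WT 1 and WT 3. They are high in WT 2 and the SAKI libraries, whereas Kit is highest in WT 3.

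With the members left out, the genes whose pattern was most like that of the proteases were not on the mast cell lists. Likeness was taken as Pearson's r between log2 CPM and the mean log2 CPM of Cpa3, Mcpt4, Cma1 and Tpsb2 over the 6 libraries. It was taken among 14551 tested genes with a mean of at least 1 CPM, the members left out, as a description without a test. The 6 points share the split of the libraries on the first principal component, with WT 1 and WT 3 apart from the rest. The highest were Dicer1, which processes microRNAs, at r = 0.998, Gap43, a growth cone protein, and Rnf135, a ubiquitin ligase, both at 0.994, and BC064078 and Ctsa, a lysosomal carboxypeptidase, both at 0.993. Dicer1 varied only from 82.5 to 102 CPM, so that it shares the order of the libraries and not the size of their differences. An r of at least 0.9 was found for 823 genes, 5.66% of those compared. Among the proteases themselves r lay between 0.969 and 0.997. With their mean, r was 0.70 for Ms4a2, 0.13 for Gata2, -0.02 for Fcer1a, -0.36 for Hdc and -0.80 for Kit over the same 6 libraries.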

How the data were processed

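Gene expression was measured by RNA-seq of poly(A) RNA in IngWAT of 3 WT and 3 SAKI mice, each labelled as a mouse of its own. The authors deposited raw counts per gene for each library and a table of FPKM values for all 6. GRCm38 and the tools StringTie 1.3.0, HISAT2 2.0.4 and Bowtie2 2.2.6 are listed in the submitters' processing notes, with no role for any. How reads were counted, against which annotation and with which strand setting is not given in the sources used here. Counts were compared with edgeR 4.0.16 in R 4.3.3 by the quasi-likelihood test with genotype as the only term, after TMM normalization and filterByExpr (minimum count 10, minimum total 15), with Benjamini-Hochberg adjustment over all 15400 genes tested. FPKM served for levels between genes and, as log2(FPKM + 1) with limma 3.58.1, as an alternative. Other alternatives were RLE scaling, DESeq2 1.42.0, no filter, a pseudocount of 0.1, the replicate number as a block and each library left out. Gene positions are as deposited (GRCm38), and neighbours are from GENCODE M21.

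Members and the 19 other gene lists were chosen with earlier results of these data known. Named genes are all members, up to 4 genes of smallest p in each list and the 5 genes most like the proteases, with exceptions stated. Stretches of 50 bases shared with transcripts of another gene made up 5.48% of Mcpt4 (Cma2, with 4 counts in all), 5.38% of Cma1 (Gm48934) and 2.69% of Ms4a2 (Ms4a4b), so that reads there could be assigned either way. Tpsb2 shared none with Tpsab1. The fit was tested on simulated data with known answers. No pair of libraries within a group was close enough to be 1 sample deposited again, and pairs across the groups were not compared.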

Additional observations from a re-analysis of the deposited data

How the results depend on the processing

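The count of 0 mast cell genes called by edgeR held with RLE scaling, DESeq2, no filter, the replicate block, the FPKM values with either pseudocount or no filter, and without any library other than WT 2, and it ranged from 0 to 4 over the libraries left out. At an unadjusted p under 0.05 edgeR gave 1. Over all genes, 5 were called, against 685 with DESeq2, 8 with no filter on low counts, 9 on FPKM values with a pseudocount of 1 or 0.1, and 1 to 2598 with each library left out, the highest without WT 2. Direction turned for Kit and Hdc without WT 3 and for Fcer1a without WT 1, so that their log2 fold changes ran from -0.43 to 0.0087, -0.64 to 0.0441 and -0.33 to 0.38 over the libraries left out. The proteases and Gata2 kept their direction under all 13 alternatives. With the FPKM values, Fcer1a, Hdc and Ms4a2 were below the filter, and the log2 difference of Ms4a2 was 0.10 with no filter since the pseudocount of 1 exceeds its level. The numbers 1 to 3 did not pair the mice. Deviations from the group means correlated at 0.04, 0.04 and 0.09 for equal numbers, and WT 1 and SAKI 3 correlated more, at 0.16. With the replicate block 1 gene was called over all genes and 0 members. Depth limits Ms4a2 and Fcer1a most, at 45 and 104 counts in all.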
